A study of Homo sapiens with 7 samples.

Results

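The 4 HOX clusters (HOXA, HOXB, HOXC and HOXD) were followed here by their CpG methylation in human embryonic stem cells with and without the TET enzymes. Members were chosen by position: all CpGs within chr7:27130001-27250000 (HOXA), chr17:46604001-46812000 (HOXB), chr12:54330001-54452000 (HOXC) and chr2:176955001-177057000 (HOXD) on hg19, grouped into bins of 1 kb. A bin was kept when it held 3 or more CpGs with 10 or more reads in each of 7 libraries. This gave 246 HOX bins of 139277 in the genome, with 64 in HOXA, 73 in HOXB, 57 in HOXC and 52 in HOXD. They hold 4455 CpGs, and 38 HOX genes belong to these spans. A HOX bin had a median of 13 CpGs, against 6 over all bins.

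The assay was enhanced reduced representation bisulfite sequencing, which samples the CpG-rich part of the genome after a conversion that makes unmethylated cytosine read as T. All libraries came from HUES8, a line of human embryonic stem cells, in a wild-type form (WT) and a form lacking TET1, TET2 and TET3 (TKO). Both genotypes were taken through a monolayer cardiac differentiation with CHIR99021, which activates Wnt signalling, followed by IWP2, which blocks it. The libraries were WT stem cells at day 0 (WT SC), WT cardiac mesoderm at day 3 (WT CME), WT cardiac progenitors at day 8 (WT CP), WT beating cardiomyocytes at day 14 (WT CM), and the TKO cells at day 0 (TKO SC), day 3 (TKO CME) and day 8 (TKO CP). The series text says that beating cardiomyocytes do not form from TKO cells, so that stage has no TKO library. Only WT CM had passed through the lactate medium that enriches cardiomyocytes, which the protocol starts at day 9. The stage of WT CM rests on its title, because its source label names the mesoderm stage and its description gives another day. The labels do not say whether the TKO line is 1 clone, and neither sequence nor expression was at hand to check the knockout or the cell type.

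There was 1 library per genotype and stage, so the Fisher's exact and z tests below compare libraries on counting error, and no test can be set against the spread between cultures. Median coverage over the CpGs shared by all libraries ran from 45 to 94 reads, and the median HOX bin held between 845 and 1480 reads per library, summed over its CpGs. Mitochondrial cytosines gave a C in 1.46% (WT SC) and 1.44% (WT CME) of reads, against 0.139% to 0.387% in the other 5 libraries. This share was taken as the measure of cytosine left unconverted. It rests on 42 (WT CP) to 317 (WT SC) mitochondrial CpGs, and a methylated C there would count the same way. WT SC and WT CME also carry a suffix in their descriptions that the other 5 libraries lack, and the labels do not say whether these 2 were made or processed separately. They are the WT side of each genotype comparison at SC and CME. With the unconverted share taken off, the HOX bins called higher in TKO, as defined below, numbered 88 at SC and 85 at CME. Without that step they numbered 86 and 83. The part of any separate handling in those results was not tested.

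HOX genes encode homeodomain transcription factors that give cells their position along the head-to-tail axis. Within a cluster the genes are ordered as they are used: genes of low paralog number are switched on first and act toward the head, and those of high number act later and toward the tail. In embryonic stem cells the clusters are CpG-rich, are held silent by Polycomb proteins and carry marks of both active and repressed chromatin, and their CpG islands are normally free of methylation. TET enzymes oxidise 5-methylcytosine, a step toward its removal, and keep many such islands and their edges unmethylated. The bisulfite reads do not tell 5-methylcytosine from 5-hydroxymethylcytosine.

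Gene starts were set on the bins by matching RefSeq promoter sequences (GRCh38.p14) to the spacing of the CpGs that the files list on hg19. Of the 38 genes, 20 had a promoter sequence and 15 were placed: HOXA2, HOXA6, HOXA7, HOXA9, HOXA10, HOXA11, HOXA13, HOXC4 and HOXC5 (which share 1 start), HOXD1, HOXD8, HOXD10, HOXD11, HOXD12 and HOXD13. The genes not placed were HOXA3, HOXA4, HOXA5, HOXB1, HOXB2, HOXB3, HOXB4, HOXB5, HOXB6, HOXB7, HOXB8, HOXB9, HOXB13, HOXC6, HOXC8, HOXC9, HOXC10, HOXC11, HOXC12, HOXC13, HOXD3, HOXD4 and HOXD9. HOXB is therefore described by position alone, and HOXC nearly so. Each placed start is the 1 start in the RefSeq table, and other starts of the same gene were not placed.

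Sequences of 250 bases before the start are shown for 5 genes on which the results turn. HOXD10 and HOXA10 are paralogs, descended from 1 ancestral gene. Their measured promoter CpGs, at the 1 start placed for each, ended at opposite levels in TKO, and other starts of these genes were not compared. HOXA6 went from partly to almost fully methylated, HOXA7 had the largest deficit in TKO among the placed starts, and HOXD1 gained methylation between mesoderm and progenitors. Each is written 5′ to 3′ on the gene's strand, from RefSeq (GRCh38.p14), with the CpGs measured in all 7 libraries in capitals. By the CpG match, they lie on hg19 at chr2:176981256-176981505 (HOXD10, plus strand), chr7:27219481-27219730 (HOXA10, minus strand), chr7:27187394-27187643 (HOXA6, minus strand), chr7:27196295-27196544 (HOXA7, minus strand) and chr2:177053146-177053395 (HOXD1, plus strand).
HOXD10: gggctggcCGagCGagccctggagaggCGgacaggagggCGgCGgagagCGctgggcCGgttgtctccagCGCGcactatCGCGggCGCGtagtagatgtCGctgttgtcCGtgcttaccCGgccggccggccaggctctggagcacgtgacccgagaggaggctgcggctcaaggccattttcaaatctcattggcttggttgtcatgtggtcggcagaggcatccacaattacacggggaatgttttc
HOXA10: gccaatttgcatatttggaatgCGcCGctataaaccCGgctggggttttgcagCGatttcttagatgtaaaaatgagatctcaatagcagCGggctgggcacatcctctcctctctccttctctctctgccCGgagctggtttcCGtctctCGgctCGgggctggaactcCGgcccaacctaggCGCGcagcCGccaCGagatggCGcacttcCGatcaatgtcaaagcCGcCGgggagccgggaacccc
HOXA6: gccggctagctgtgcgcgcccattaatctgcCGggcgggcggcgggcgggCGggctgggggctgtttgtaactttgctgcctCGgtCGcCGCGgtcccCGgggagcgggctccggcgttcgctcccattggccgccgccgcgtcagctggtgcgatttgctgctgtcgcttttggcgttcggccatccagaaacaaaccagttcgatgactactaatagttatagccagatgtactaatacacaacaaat
HOXA7: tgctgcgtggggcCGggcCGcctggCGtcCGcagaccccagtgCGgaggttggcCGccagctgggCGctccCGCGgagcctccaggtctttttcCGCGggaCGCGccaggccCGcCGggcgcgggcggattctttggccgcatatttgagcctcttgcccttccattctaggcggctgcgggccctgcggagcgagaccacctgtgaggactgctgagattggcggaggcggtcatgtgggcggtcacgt
HOXD1: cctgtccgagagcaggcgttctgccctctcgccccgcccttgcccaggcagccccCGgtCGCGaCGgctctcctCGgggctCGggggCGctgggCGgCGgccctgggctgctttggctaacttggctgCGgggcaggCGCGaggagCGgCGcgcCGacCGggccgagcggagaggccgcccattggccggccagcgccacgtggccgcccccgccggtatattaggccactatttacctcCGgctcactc
Of the CGs in these stretches, 16 of 23 were measured for HOXD10, 18 of 19 for HOXA10, 7 of 27 for HOXA6, 15 of 28 for HOXA7 and 17 of 31 for HOXD1. Over the measured CpGs, HOXD10 stood at 4.72%, 4.47%, 2.57% and 2.30% in the WT libraries in stage order, against 89.5%, 91.5% and 91.0% in the TKO libraries. The same measure for HOXA10 was 2.70%, 2.46%, 0.384% and 0.274% in the WT libraries, in that order, and 5.82%, 5.48% and 8.76% in the TKO libraries. So the capitals of the HOXD10 sequence were nearly all read as methylated in TKO, and those of HOXA10 mostly were not. The 2 stretches are not alike in place. All HOXD10 capitals lie in the part farther from the start, and the CGs nearer to it were not measured. Those of HOXA10 reach to 18 bases before the start.

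In wild-type cells the clusters were almost free of methylation at every stage. Pooled over the reads of all 4 clusters, the WT level was 7.60% at SC (95% Wilson interval 7.51 to 7.70), 7.07% at CME (6.98 to 7.16), 4.35% at CP (4.29 to 4.41) and 4.45% at CM (4.38 to 4.51). Over all other bins of the genome the pooled level was 31.7%, 31.6%, 26.3% and 27.0%. Of the 246 HOX bins, 212 were under 20% in WT SC and 227 in WT CM, and the number over 80% was 1, 1, 0 and 0 at SC, CME, CP and CM. Some of the exceptions lay side by side. In HOXA the 5 bins from chr7:27184001 to 27189000, which hold the HOXA6 start, were at 38.96%, 39.1%, 33.2% and 34.8% in the 4 WT libraries. HOXD had 2 bins above 60% in each WT library, chr2:176982001-176983000 beside the HOXD10 start (65.0%, 72.5%, 74.1% and 75.9%) and chr2:177004001-177005000 (67.7%, 63.4%, 73.9% and 62.7%).

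Without the TET enzymes the pooled level was higher at each stage. It was 18.6% at SC (18.5 to 18.7), 17.7% at CME (17.6 to 17.8) and 22.8% at CP (22.7 to 22.9), or 11.0, 10.6 and 18.4 percentage points above WT. Reads are most numerous in CpG-dense bins, and with every bin weighted equally the means were 31.7%, 31.2% and 33.8% in TKO, against 11.6%, 11.1% and 7.87% in WT at the same stages. In TKO the bins over 80% numbered 35 at SC, 36 at CME and 42 at CP, while 129, 132 and 119 bins were under 20% and 82, 78 and 85 lay between.

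**Figure D1:**
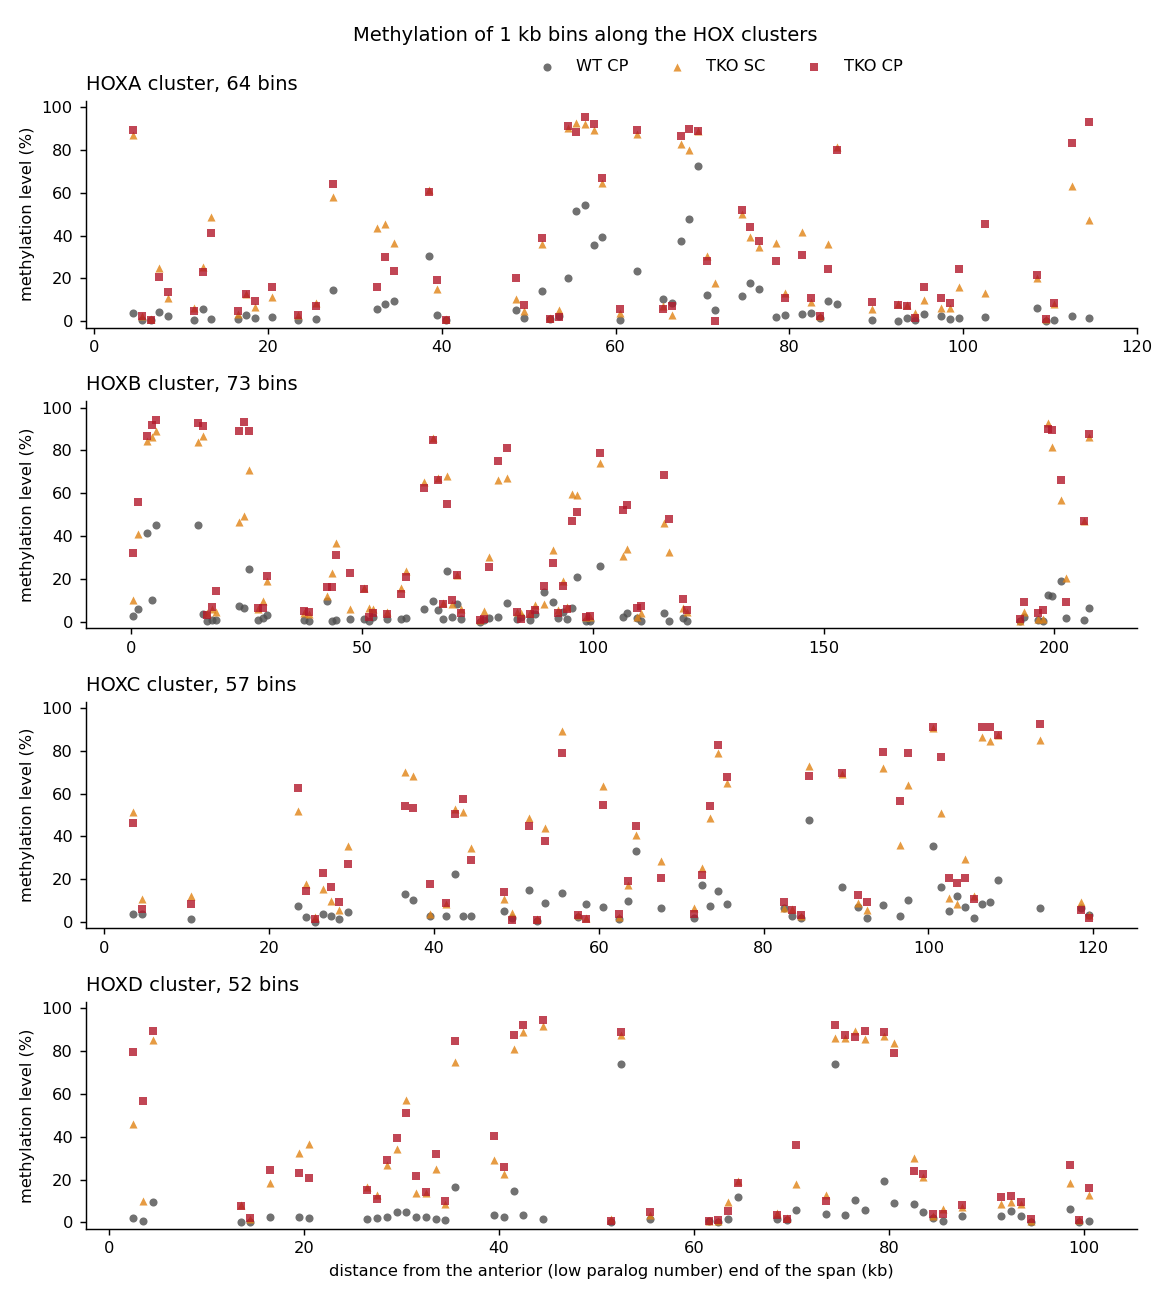
Methylation level (%) of each 1 kb bin against its distance in kb from the anterior end of each span, where the genes of low paralog number lie, for WT CP (grey circles), TKO SC (orange triangles) and TKO CP (red squares); each point is 1 bin in 1 library. In each cluster TKO points near 90% stand among points near 0, and most WT points lie under 20% (223 of 246 bins in WT CP).

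A bin was called when Fisher's exact test on its reads gave an adjusted p under 0.01 (Benjamini-Hochberg over all 139277 bins) and the levels differed by 25 points or more. At SC, 86 HOX bins (35.0%) were higher in TKO, against 4.83% of all bins, and 0 were lower, against 0.191%. At CME, 83 (33.7%) were higher, against 4.6%, and 0 lower, against 0.158%. At CP, 91 (37.0%) were higher, against 10.9%, and 0 lower, against 0.0754%. The median difference over HOX bins was 8.44 points at SC, 8.27 at CME and 15.2 at CP, and over the other bins it was −1.22, −1.58 and 1.13. The range over HOX bins at CP ran from −6.94 to 92.7 points, with 235 of 246 above 0.

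All 4 clusters contributed. Bins called higher at SC, CME and CP numbered 19, 20 and 20 of 64 in HOXA, 28, 24 and 29 of 73 in HOXB, 24, 23 and 24 of 57 in HOXC, and 15, 16 and 18 of 52 in HOXD. The share at CP ran from 31.3% in HOXA to 42.1% in HOXC, and differences between clusters were not tested. The pooled level in TKO CP was 22.3% in HOXA, 24.2% in HOXB, 25.1% in HOXC and 20.2% in HOXD, against 5.68%, 3.43%, 5.66% and 3.03% in WT CP.

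HOX bins differ from most of the genome in CpG number and in WT level, so shares were also compared by CpG number among bins of low WT level. Among bins under 20% in WT CM, 32.6% of 227 HOX bins and 12.5% of 33625 other bins were higher at SC, and 33.9% and 18.1% at CP. Within that group, the HOX share at SC was 51.9% with 3 to 9 CpGs per bin, 29.9% with 10 to 19, 18.97% with 20 to 39 and 8.70% with 40 or more. Other bins gave 22.3%, 14.99%, 9.36% and 4.09%. At CP the HOX shares were 48.1%, 31.3%, 24.1% and 17.4%, and the others 34.5%, 20.3%, 12.8% and 5.56%. In each of these classes the HOX share was above that of the other bins, and in both sets it was smaller with more CpGs per bin. Among bins between 20% and 80% in WT CM, of which HOX has 19, the share of other bins at SC was larger with more CpGs (6.73%, 16.6%, 32.4% and 42.9%). The difference between the sets was not tested, and the class of 40 or more rests on 23 HOX bins.

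**Figure D2:**
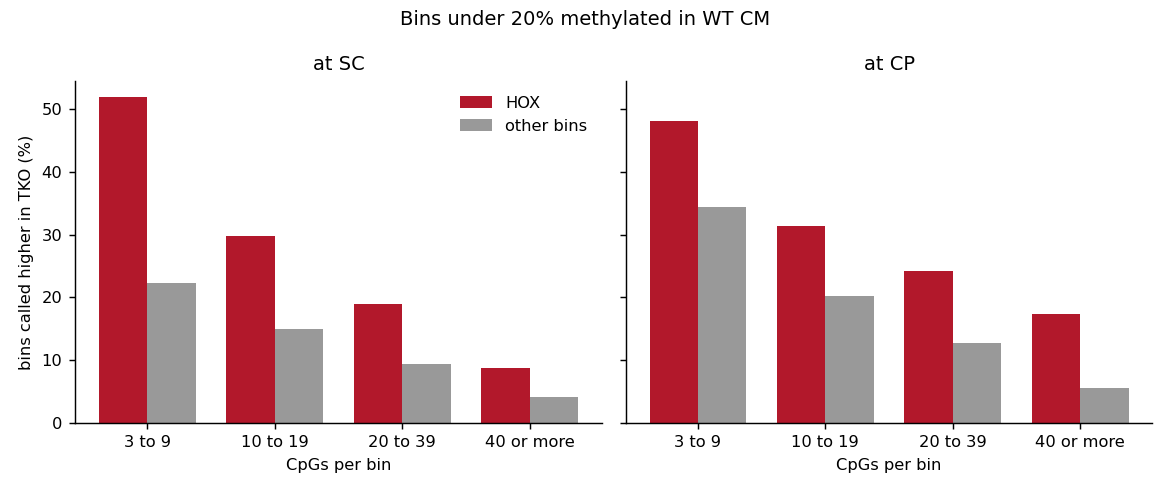
Percent of bins called higher in TKO than in WT, by CpGs per bin, at SC (left) and CP (right), for HOX bins (red) and all other bins (grey) that were under 20% methylated in WT CM; bars carry no error because each stage has 1 library per genotype. At SC the bars fall from 51.9% to 8.70% for HOX bins and from 22.3% to 4.09% for other bins.

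Most of the gain was already there in stem cells. Of 98 HOX bins higher in TKO at any stage, 75 were called at all 3, whereas among other bins this was 5606 of 15571. Of the 86 bins called at SC, 81 were also called at CP, which is 94.2% of the SC calls and 89.0% of the 91 CP calls. Among other bins the same overlap was 94.3% of the SC calls and 41.4% of the CP calls. HOXC stood at the end of this range: all 24 of its bins called at SC were the 24 called at CP, and 23 were called at all 3 stages. Across HOX bins, 148 were called at no stage. HOX and other bins differ in WT level, and the overlap of SC and CP calls was not compared at like WT level. Among other bins under 20% in WT CM, 4214 were higher at SC and 6080 at CP, against 74 and 77 HOX bins. Between 20% and 80% in WT CM, the calls were 2397 and 8898 in other bins, and 12 and 14 in HOX bins.

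Calls were spread over the length of the clusters. Dividing the bins of each cluster by order into anterior, middle and posterior segments of like size, 29 of 84, 25 of 81 and 32 of 81 were higher at SC, and 30, 28 and 33 at CP. At CP the anterior, middle and posterior calls were 4, 10 and 6 in HOXA, 11, 6 and 12 in HOXB, 7, 7 and 10 in HOXC, and 8, 5 and 5 in HOXD. Differences between clusters in this placement were not tested.

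Some bins of high and low level in TKO lay next to each other. Of the 91 bins higher at CP, 76 had a measured neighbouring bin, and for 16 of these a neighbour was under 10% in TKO CP. The HOXA7 start bin is such a neighbour: chr7:27196001-27197000 was at 7.03% in TKO CP, and chr7:27197001-27198000 was at 86.6%. The second of these was at 35.7%, 34.7%, 37.4% and 36.0% in the 4 WT libraries and at 83.0% and 80.9% in TKO SC and TKO CME.

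Of the 15 placed members, 4 had a start bin called higher in TKO at any stage, HOXA6, HOXA9, HOXD1 and HOXD10, where 39.8% of all HOX bins and 11.2% of the other bins were. These starts are described first by their place along the axis, and the rest follow.

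HOXD1, the most anterior gene of its cluster, changed late. Its start bin, chr2:177053001-177054000 with 76 CpGs, was at 2.22%, 2.80%, 0.861% and 1.18% in WT at SC, CME, CP and CM. In TKO it was at 9.94% at SC (9.38 to 10.5), 11.2% at CME (10.5 to 11.8) and 56.8% at CP (55.6 to 58.0). TKO CP was high, and the other 6 libraries were below 12%. The TKO minus WT difference was 7.71 points at SC, 8.36 at CME and 55.9 at CP, and only the last was called among these 3. Over the 17 measured capitals of the sequence above, single CpGs were between 30.4% and 64.8% in TKO CP and at most 14.5% in TKO CME, so the gain was partial at each one. The same bin holds the start of HAGLR, an antisense long noncoding RNA that runs the other way from beside HOXD1.

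HOXA6, a central gene that acts in the trunk, was partly methylated in WT and nearly fully methylated in TKO. Its start bin, chr7:27187001-27188000 with 27 CpGs, stood at 36.7%, 39.2%, 35.7% and 38.02% in WT in stage order, and at 89.4%, 90.5% and 92.0% in TKO. The TKO minus WT differences were 52.7, 51.3 and 56.3 points at SC, CME and CP (adjusted p by Fisher's exact test at SC 3.28e-297). The 7 measured CpGs before the start were lower in WT than the whole bin, at 13.3%, 17.7%, 7.63% and 18.5%, and were at 92.4%, 91.8% and 94.6% in TKO. The bin belongs to the longest run of adjacent called bins at CP in HOXA, chr7:27184001-27189000 with 5 bins and 55 CpGs. That run was at 87.8%, 87.0% and 89.2% in the 3 TKO libraries.

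HOXA7, the neighbour of HOXA6 toward the posterior side, went the other way by a small amount. Its start bin, with 24 CpGs, was at 12.1%, 13.5%, 8.76% and 9.65% in the 4 WT libraries and at 2.88%, 5.19% and 7.03% in TKO. It was 9.26 points lower in TKO at SC (adjusted p by Fisher's exact test 3.12e-27) and 8.35 lower at CME (4.27e-17), and the difference of −1.73 points at CP did not pass (0.0636). The size did not reach 25 points at any stage, so the bin was not called. The 15 measured CpGs of the sequence above gave 9.74% in WT and 3.49% in TKO stem cells. The unconverted share was 1.46% in WT SC and 1.44% in WT CME, and its part in the lower TKO levels at HOXA7 was not tested.

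HOXA9, a posterior-group gene also known for its part in blood progenitors, differed over its start bin as a whole. The bin, chr7:27205001-27206000 with 48 CpGs, was at 18.6%, 14.8%, 17.9% and 15.5% in WT and at 39.4%, 35.2% and 43.9% in TKO. The difference was 20.7 points at SC, 20.4 at CME and 26.0 at CP, so that only the last was called, close to the threshold (adjusted p by Fisher's exact test 8.90e-159). With the mean of CpG levels in place of pooled reads it was 23.4 points. In the bin of 500 bases with the same first base it was 15.9, and the call was lost in both. The 17 measured CpGs from 250 bases before the start to 50 past it were at 24.2%, 22.5% and 25.6% in WT SC, WT CME and WT CP, against 17.9%, 18.1% and 26.1% in TKO.

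HOXD10, a posterior gene that patterns the limb and the lower spinal cord, showed the highest TKO level among the gene starts beside HOXA6. Its start bin, chr2:176981001-176982000 with 33 CpGs, was at 5.53%, 6.24%, 3.27% and 2.78% in WT and at 86.0% (84.6 to 87.4), 89.3% (88.1 to 90.4) and 87.6% (86.3 to 88.8) in TKO. The differences were 80.5, 83.0 and 84.3 points. It forms a run with the bins on its lower-coordinate side, chr2:176979001-176982000 with 56 CpGs, at 9.58%, 9.69%, 4.96% and 4.97% in WT and 86.7%, 89.2% and 87.7% in TKO. The other HOXD runs of 3 called bins, chr2:177026001-177029000 and chr2:177052001-177055000, were at 40.5% and 61.3% in TKO CP.

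The start bins of HOXA10, HOXA11, HOXD11, HOXA13 and HOXD13 were called at no stage. The HOXA10 start bin was at 2.82%, 2.58%, 0.424% and 0.271% in WT and at 5.81%, 5.43% and 8.80% in TKO, and the differences of 2.99, 2.85 and 8.38 points were under the size for a call. In TKO SC the 4 CpGs from 119 to 94 bases before the start were between 36.0% and 40.7%, and the others of the shown sequence were at most 11.8%. In TKO CP these 4 were between 21.2% and 38.9%, and CpGs outside that stretch reached 27.2% (18 bases before the start) and 17.1% (225 before). In paralog group 11, HOXA11 was at 3.94%, 2.65% and 1.77% in TKO and HOXD11 at 3.01%, 2.25% and 3.73%. The HOXA11 bin lies mostly past the start, and the 6 measured CpGs within 250 bases before it were at 5.47%, 5.10% and 2.67% in WT SC, WT CME and WT CP and at 19.5%, 13.3% and 20.02% in TKO. In group 13, which patterns the ends of the limbs and the hindgut, HOXA13 was at 0.859%, 0.798% and 1.02% and HOXD13 at 0.939%, 0.749% and 1.26%. HOXA13 and HOXD13 hold 88 and 60 measured CpGs in their start bins, and both were below 2% in all 7 libraries.

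The start bins of the remaining placed genes were below 26% in all libraries. HOXA2, which patterns the hindbrain, was highest, at 14.97%, 14.0%, 5.95% and 5.19% in WT and 25.1%, 17.4% and 23.3% in TKO on 4 CpGs. HOXD12 reached 12.5% in TKO CP, HOXC4 and HOXC5 9.02% over their shared start, and HOXD8 1.09%.

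**Figure D3:**
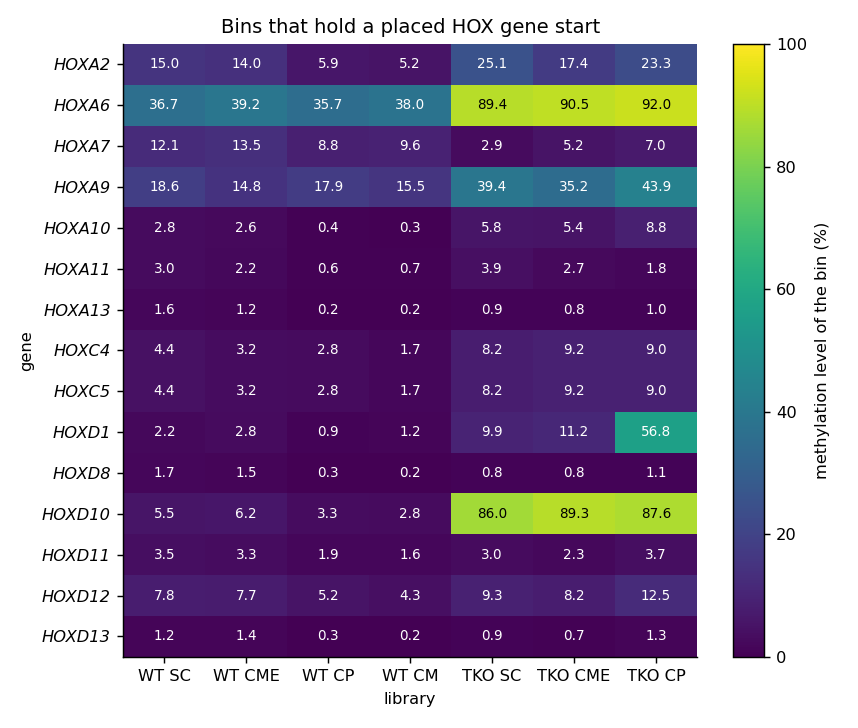
Methylation level (%) of the bin that holds each of 15 placed HOX gene starts (rows, HOXA to HOXD) in the 7 libraries (columns), as colour and number. HOXA6 and HOXD10 are between 86.0% and 92.0% in TKO, HOXD1 reaches 56.8% in TKO CP alone, and HOXA13, HOXD8 and HOXD13 are below 2% throughout.

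The largest differences at CP were mostly in bins without a placed start, and were also large in TKO stem cells. Only 15 of 38 genes were placed, with 0 of 10 in HOXB and 2 of 9 in HOXC. How far these bins lie from the other gene starts was therefore not measured. In HOXD, chr2:177012001-177013000 (8 CpGs) was at 2.62%, 2.39%, 1.80% and 0.922% in WT and 91.9%, 90.4% and 94.5% in TKO, and chr2:177014001-177015000 (8 CpGs) at 6.90%, 5.70%, 3.51% and 3.93% against 89.0%, 89.1% and 92.0%. In the HOXD10 run, chr2:176979001-176980000 was at 5.79%, 9.27%, 5.84% and 6.80% against 85.7%, 88.3% and 89.2%. The fifth, next to the HOXD1 start at chr2:177052001-177053000 (6 CpGs), went from 14.9%, 13.9%, 9.68% and 6.74% to 85.3%, 85.8% and 89.2%. The HOXD1 bin itself was low in TKO SC although this neighbour was already at 85.3%.

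In HOXA, chr7:27134001-27135000 (8 CpGs), at the anterior end, was at 8.67%, 11.6%, 4.01% and 4.23% in WT and 87.0%, 83.9% and 89.6% in TKO. The bin chr7:27215001-27216000 (28 CpGs), between the HOXA9 and HOXA10 starts, was at 14.5%, 14.6%, 8.16% and 7.20% against 81.5%, 84.4% and 80.2%. The anterior edge of the HOXA6 run, chr7:27184001-27185000 (15 CpGs), was at 31.9%, 29.2%, 20.4% and 18.1% against 90.4%, 90.7% and 91.5%. These 3 were high in each TKO library, and the other two of the 5 lie past HOXA13 and rose late, as given below.

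In HOXB, chr17:46619001-46620000 (38 CpGs) was at 8.75%, 10.2%, 3.47% and 4.84% in WT and 86.6%, 88.1% and 91.4% in TKO. The bin chr17:46608001-46609000 (4 CpGs) was at 13.5%, 20.2%, 9.97% and 8.78% against 86.4%, 90.2% and 91.7%. These lie within 16 kb of the anterior end of the span, where HOXB1 is the first gene, and the other 3 of the 5 are given with the changes between stages. Longest runs in HOXB were 3 bins, chr17:46607001-46610000 and chr17:46627001-46630000, and the second went from 55.8% in TKO SC to 91.0% in TKO CP.

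In HOXC the 5 largest were all in the posterior segment. The bin chr12:54338001-54339000 (15 CpGs) was at 10.9%, 8.70%, 6.68% and 6.62% in WT and 85.2%, 89.3% and 92.7% in TKO. Next came chr12:54345001-54346000 (26 CpGs), at 11.1%, 10.9%, 8.37% and 7.91% against 86.6%, 87.6% and 91.1%, and its neighbour chr12:54344001-54345000 (6 CpGs), at 20.8%, 15.1%, 9.31% and 12.3% against 84.6%, 84.8% and 91.3%. The last were chr12:54357001-54358000 (6 CpGs), at 7.54%, 9.00%, 7.72% and 6.68% against 71.9%, 65.1% and 79.4%, and chr12:54354001-54355000 (15 CpGs), at 13.7%, 11.4%, 10.1% and 7.44% against 63.9%, 63.9% and 79.1%. The first 3 were near full methylation from TKO SC on, and the last 2 were below 72% in TKO SC. HOXC runs of 3 bins were chr12:54343001-54346000, chr12:54376001-54379000 and chr12:54407001-54410000, at 90.9%, 74.2% and 49.4% in TKO CP.

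Within each genotype the clusters changed little between stages. In WT, 0 of 246 HOX bins were called from SC to CME (0.0438% of all bins were higher and 0.0223% lower), and 0 from CP to CM (0.0682% and 0.0345%). From CME to CP 1 was lower, against 4.1% of all bins, and 0 higher, against 0.033%. From SC to CM 1 was lower, against 3.46%, and 0 higher, against 0.134%. A fall of 25 points is possible only where a bin starts at 25% or more, and few HOX bins did. The median WT change from CME to CP was −2.59 points, and the unconverted share fell from 1.44% to 0.219% over the same step. With that share taken off, the pooled WT level was 6.25%, 5.72%, 4.15% and 4.24% in stage order.

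Both WT calls were in HOXB. The bin chr17:46609001-46610000, with 3 CpGs, was at 80.8%, 83.5%, 44.9% and 66.4% in WT at the successive stages, against 89.2%, 86.2% and 94.4% in TKO. It fell by 38.5 points from WT CME to WT CP (adjusted p by Fisher's exact test 1.29e-16) and was 21.5 points higher in WT CM than in WT CP, under the size for a call. The bin chr17:46811001-46812000, with 7 CpGs at the posterior end, was at 35.7%, 24.1%, 6.24% and 4.96% in WT and 86.4%, 78.1% and 87.8% in TKO. It fell by 30.8 points from WT SC to WT CM (adjusted p 2.56e-25). One HOXB bin at the anterior edge, chr17:46604001-46605000, differed between WT stages by less than the size for a call. It was at 1.88%, 3.17%, 2.72% and 16.8% in WT and 9.94%, 13.0% and 32.0% in TKO.

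In TKO, 0 HOX bins were called from SC to CME (0.0704% of all bins higher, 0.0582% lower). From CME to CP 8 were higher (3.25%), against 0.617% of all bins, and 1 was lower, against 0.0747%. A bin over 80% in TKO CME cannot rise by the size for a call. In TKO CME 64.3% of the bins outside the clusters were over 80%, against 14.6% of HOX bins. The shares of higher bins were not compared at like TKO CME level, so they do not set HOX bins apart. The 8 higher HOX bins sat in 5 places. In HOXA, chr7:27232001-27233000 (66 CpGs), between the HOXA11 and HOXA13 starts, went from 13.2% and 11.3% in TKO SC and TKO CME to 45.5% in TKO CP. Past HOXA13, chr7:27242001-27243000 (6 CpGs) went from 63.1% and 50.9% to 83.3%, and chr7:27244001-27245000 (28 CpGs) from 47.4% and 45.2% to 93.3%. HOXA13 itself, between these bins, stayed at 1.02%.

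In HOXB, chr17:46627001-46628000 (18 CpGs) went from 46.3% and 48.3% to 89.2% and chr17:46628001-46629000 (31 CpGs) from 49.5% and 54.7% to 93.2%. In WT the same bins were at 3.12% and 4.93% at SC, 7.51% and 6.32% at CP, and 9.35% and 9.67% at CM. Their neighbour chr17:46629001-46630000 went from 12.9% to 31.0% between SC and CM in WT and from 70.9% to 88.9% between SC and CP in TKO. Farther along, chr17:46719001-46720000 (5 CpGs) went from 46.3% and 37.6% to 68.6% in TKO. In HOXD the 2 bins were the HOXD1 start bin and chr2:177054001-177055000 (19 CpGs), which went from 46.1% and 37.1% to 79.5%. The HOXD1 start bin and the HOXA bin at chr7:27232001-27233000 were below 12% in TKO CME, and the other 6 were already above 37%. The 1 lower bin, chr7:27201001-27202000, held 3 CpGs and went from 27.6% of 76 reads to 0% of 30 reads, where 3 reads would make 10% and the 95% Wilson upper limit is 11.4%.

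**Figure D4:**
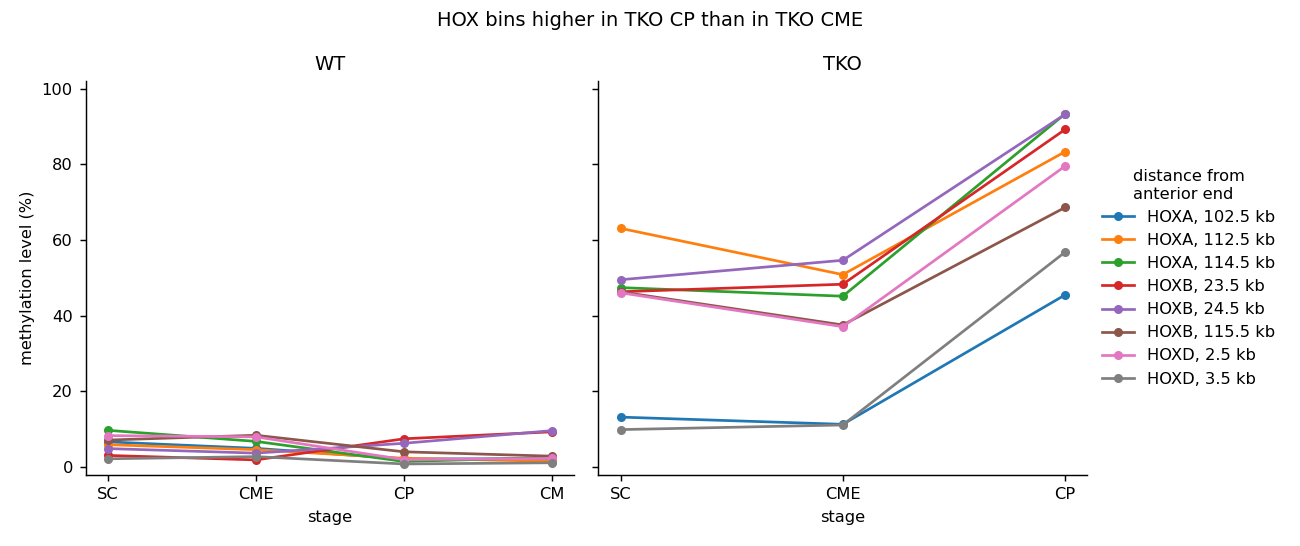
Methylation level (%) by stage in WT (left, 4 libraries) and TKO (right, 3 libraries) for the 8 HOX bins called higher in TKO CP than in TKO CME, each named by cluster and distance in kb from the anterior end. In TKO all 8 are highest at CP, between 45.5% and 93.3%, while in WT all stay under 10%.

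The change of the TKO minus WT difference was tested directly with a z test on the reads. From SC to CP it was called upward in 11 HOX bins (4.47%), against 6.38% of all bins, and downward in 0, against 0.136%. From SC to CME it was called in 0 HOX bins, against 0.0919% upward and 0.118% downward. From CME to CP it was called upward in 13 (5.28%), against 6.38%, and downward in 1, against 0.0732%. The upward shares were close to those over all bins, so they set nothing apart about HOX bins. By segment, the 11 bins comprised 5 anterior, 0 middle and 6 posterior ones. The largest change from SC to CP in each cluster was 54.1 points at chr7:27244001-27245000 in HOXA, 42.3 at chr17:46628001-46629000 in HOXB, 31.3 at chr12:54350001-54351000 in HOXC and 48.2 at the HOXD1 start bin in HOXD. The HOXC bin holds 3 CpGs and was at 21.6%, 21.9%, 16.2% and 18.4% in WT and 51.1%, 64.9% and 77.0% in TKO.

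**Figure D5:**
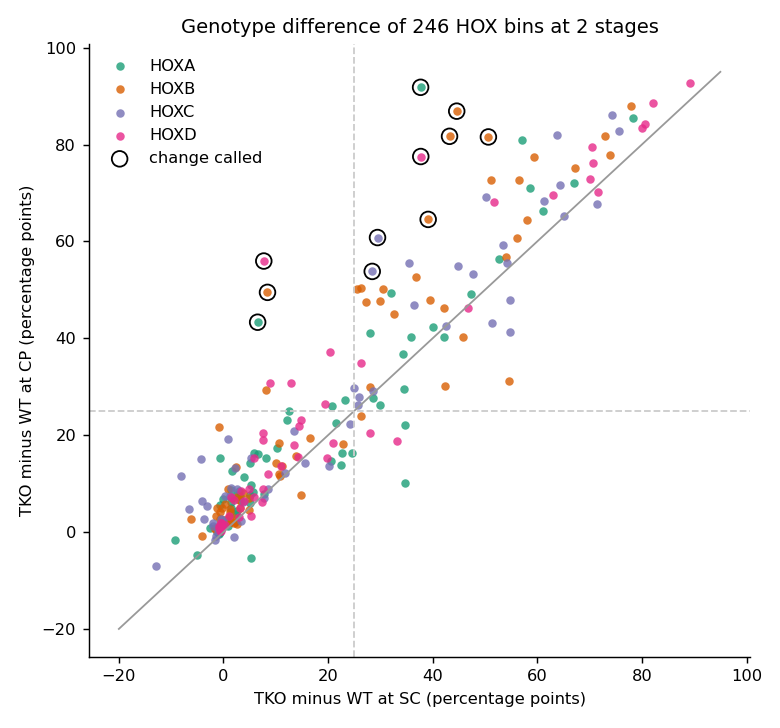
TKO minus WT difference in percentage points at SC (x axis) and at CP (y axis) for the 246 HOX bins, coloured by cluster; the grey line marks equal differences, dashed lines 25 points, and black rings the 11 bins whose change was called. Most bins lie near the line, and the ringed bins lie above it.

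A linear model (limma) with genotype and stage as terms was also fitted to arcsine square root levels of the 7 libraries. It left 2 residual degrees of freedom. Its error came from how the TKO minus WT difference varied among SC, CME and CP, so stages stood in for replicates. The model called 75 HOX bins higher in TKO (3.7% of all bins) and 0 lower (0.0237%). Of these 75, 69 were among the 75 bins called at all 3 stages by Fisher's exact test.

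Genes outside the clusters that work with HOX proteins were examined by the same start bins. Among the HOX cofactors PBX2, PBX3, PBX4, MEIS1, MEIS2, MEIS3, PKNOX1 and PKNOX2, 5 of 8 were placed and 1 was called, at SC, where 4.83% of all bins were higher. MEIS3 was at 3.73%, 15.3%, 3.05% and 3.38% in WT and 45.0%, 26.1% and 20.5% in TKO on 6 CpGs, called higher at SC alone of the 3 genotype comparisons. PBX3, PBX4, MEIS2 and PKNOX1 stayed under 2% in all 7 libraries. Among the upstream and related homeobox genes CDX1, CDX2, GSX1, GSX2, PDX1, EVX1, EVX2 and MNX1, 3 of 8 were placed and 0 were called, and the largest difference was at GSX1, 5.15% in WT CP and 21.0% in TKO CP. Of 14 noncoding RNAs of the clusters, 3 were placed. HAGLR shares the HOXD1 bin. MIR615 in HOXC was placed by its hairpin sequence, and its bin of 36 CpGs was at 2.33% in WT CP and 14.6% in TKO CP. The 7 CpGs within the hairpin were at 2.47% and 7.35%. HOTTIP, which lies beside HOXA13, was at 0.450% and 8.75% in a bin whose 4 CpGs lie past its start, and at 0.0859% and 0.6001% over the 28 CpGs before it.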

How the data were processed

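Enhanced reduced representation bisulfite sequencing was done on 7 libraries, 1 per genotype and stage, grouped by the sample titles. Alignment and methylation extraction were done by a core facility, per the labels' protocols, and per the submitters' processing notes the build was hg19. No aligner or caller is given in the sources used here. For each strand of each CpG the deposited files hold the coverage, which is a plain count of reads, and the authors' percent of those reads with C and with T, per the file headers. No listed cytosine had fewer than 10 reads.

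Percentages were turned back into reads, both strands of a CpG were summed, and CpGs with 10 or more reads in all 7 libraries were pooled into 1 kb bins with 3 or more CpGs. Mitochondrial CpGs served as the measure of unconverted cytosine alone. Library totals of coverage ran from 120742115 (WT SC) to 213058905 (TKO CME). A two-sided Fisher's exact test compared 9 pairs of libraries and a z test examined 3 changes of the genotype difference, each adjusted over 139277 bins and called at an adjusted p under 0.01 and 25 points. Reads that span several CpGs count at each, and PCR copies are not independent molecules, so p-values and Wilson intervals (95%) cover counting error only and can be too small. The tests were run on simulated reads drawn independently of each other. That check does not cover linked CpGs, PCR copies or the spread between cultures.

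RefSeq promoters (250 bases before to 50 after the start) were placed where no listed CpG fell off a CG, with 4 or more matches within a cluster (8 or more elsewhere) and 2 or more above the next position. No coordinates were converted between builds. The members, gene lists and named bins were chosen with earlier results of these data known. Named were, per cluster, the 5 largest called differences at CP, the longest run of called bins, the called WT bins and the largest called change from SC to CP, together with called gene starts. One listed cofactor is not reported here. Alternatives changed the CpG number, read minimum, size, bins, weighting, conversion and CpG set, and the model. Software was R 4.3.3 with limma 3.58.1, and Python 3.11.15 with scipy 1.17.1, pandas 2.3.3, numba 0.67.0, numpy 2.4.6 and matplotlib 3.10.9.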

Additional observations from a re-analysis of the deposited data

Results flagged for a closer look

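In 16 HOX bins the genotype difference changed between 2 stages by the z test on the reads, and these are given by value with no explanation. Upward calls from SC to CP made up 4.47% of HOX bins, against 6.38% of all bins. From CME to CP they made up 5.28%, against 6.38%. From SC to CP the TKO minus WT difference grew in HOXA by 36.8 points at chr7:27232001 and 54.1 at chr7:27244001. In HOXB it grew by 41.1 points at chr17:46609001, 38.5 at chr17:46627001, 42.3 at chr17:46628001, 25.4 at chr17:46719001 and 30.9 at chr17:46811001. In HOXC it grew by 25.4 points at chr12:54355001 and 31.3 at chr12:54350001, and in HOXD by 39.8 at chr2:177054001 and 48.2 at chr2:177053001, which holds the HOXD1 start.

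From CME to CP it grew in HOXA by 37.0 points at chr7:27232001, 34.7 at chr7:27242001 and 53.5 at chr7:27244001. In HOXB it grew by 46.7 points at chr17:46609001, 35.3 at chr17:46627001, 36.0 at chr17:46628001, 29.5 at chr17:46710001, 27.4 at chr17:46711001, 35.4 at chr17:46719001 and 27.5 at chr17:46811001, and the value at chr17:46672001, on 4 CpGs, was −25.3. In HOXC it grew by 26.2 points at chr12:54387001, and in HOXD by 48.4 at chr2:177054001 and 47.6 at chr2:177053001. At chr17:46609001 (3 CpGs), chr17:46811001 and chr12:54387001 the WT level was lower at CP than at CME (83.5% to 44.9%, 24.1% to 6.24% and 50.7% to 33.4%), and at the HOXD1 bin the WT libraries stayed under 3%.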

How the results depend on the processing

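The count of HOX bins called higher in TKO stayed within 1.5 times at all 3 stages under every alternative, except that a size of 40 points left 53 at SC and 52 at CME, and no alternative called a HOX bin lower in TKO in these 3 comparisons. At 40 points the counts were also 4 for TKO CP minus TKO CME, 4 for the change from SC to CP, 4 for the change from CME to CP, and 0 for WT CP minus WT CME and WT CM minus WT SC. The single WT calls were lost in other settings too: WT CP minus WT CME gave 0 with 5 or more CpGs per bin, and WT CM minus WT SC gave 0 with bins shifted by 500 bases. Bins of 500 bases gave 14 calls for TKO CP minus TKO CME. The pooled TKO minus WT difference became 20.1, 20.03 and 25.9 points at SC, CME and CP as a mean over bins, and 12.2 at SC and 11.6 at CME with the unconverted share taken off. For named bins, 201 of 207 pairs of bin and alternative kept their direction and call, 6 lost the call (4 at 40 points, the other 2 at the HOXA9 start), and 0 changed sign. A pair was counted only where the alternative kept a bin with the same first base. Bins shifted by 500 bases therefore gave no pair, and bins of 500 bases tested only the first part of a named bin. Named bins of fewer than 5 CpGs had no pair at 5 or more CpGs.

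No paired analysis was possible because each group has 1 library and the labels give no replicate to pair. The model of genotype and stage, which sets TKO against WT within stages, called 75 HOX bins higher. Depth was lowest in WT SC (median 45 reads per CpG), and the bins named here hold as few as 3 CpGs.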
